A study of Mus musculus with 51 samples.

Results

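SBT (2-sec-butyl-4,5-dihydrothiazole) is a volatile of mature male mouse urine, and its 1% dilution was compared here with its diluent control over the full set of intact odorant receptor (OR) genes. The comparison used 6 of the 51 pS6-IP-Seq libraries of the series, 3 from mice exposed to 1% SBT and 3 from mice exposed to diluent, and all 1117 OR genes counted in them. Both groups were wild-type C57BL/6J littermates about 3 weeks old, of mixed sex, with the sex of each library not given in the labels. Each mouse was habituated for 1 hr in an odor-free container and then spent 1 hr with a cassette holding a pad wetted with the stimulus. The control mice received diluent, which the labels do not name, and the same 3 control libraries also served mice exposed to undiluted SBT (100%). Whole olfactory mucosa was used. A separate experiment on other mice, with its own controls, tested 0.01% SBT.

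ORs are G protein-coupled receptors of the olfactory sensory neurons. A mature neuron of this kind expresses a single OR gene out of the whole repertoire, so the OR mRNA identifies the neuron. Firing leads to phosphorylation of ribosomal protein S6, and immunoprecipitation of ribosomes with an antibody to phosphorylated S6 (pS6) pulls down mRNA preferentially from neurons that were recently active. A higher count of an OR after odor exposure than after diluent is the readout of the assay. In such bulk samples more active neurons of a type and more mRNA pulled down per neuron cannot be told apart.

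The tables hold OR genes only, so the labelled tissue could not be checked against markers of other cell types. OR reads per library ranged from 27301 to 57154 in the control group and from 41426 to 66366 in the 1% SBT group, and 972 to 1045 ORs had at least 1 read. Abundance is given below as the share of a library's OR reads taken by an OR. *Olfr140* held the highest share, which is not corrected for gene length, in 5 of the 6 libraries. The library of 1% SBT replicate 1 stood apart: *Olfr545* held 14.4% of its OR reads (95% Wilson interval, 14.1% to 14.7%), against 0.0377% to 0.395% in the other 5 libraries. Results that rest on that library are therefore also given without it. Titles of replicates 1 and 2 of both groups share a prefix that replicate 3 of both groups does not, and the labels do not say what it marks.

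Exposure to 1% SBT was followed by a higher pS6-associated count of 9 ORs and a lower count of none. The 9 were *Olfr910*, *Olfr912*, *Olfr914* and *Olfr921* of chromosome 9, *Olfr196* and *Olfr186* of chromosome 16, *Olfr1353* of chromosome 10, *Olfr1085* of chromosome 2 and *Olfr376* of chromosome 11. Their log2 fold changes ran from 1.87 to 3.84, and their 3 shares after 1% SBT lay above all 3 control shares in each case. The 9 were picked by p in the same 6 libraries, which favours such a gap, and 3.74% of all ORs tested had one. Together the 9 held 0.634% to 0.955% of the OR reads in the control libraries and 3.29% to 4.96% in the 1% SBT libraries. Of the 1117 ORs, 27 had no read in any of the 6 libraries and 47 had 1 to 9 reads, which left 1043 for the test (edgeR quasi-likelihood, Benjamini-Hochberg adjustment). Those 9 ORs made up 0.863% of the ORs tested. At an unadjusted p under 0.05 there were 31 higher ORs (2.97%) and 22 lower ORs (2.11%), and DESeq2 also called 0 lower.

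**Figure D1:**
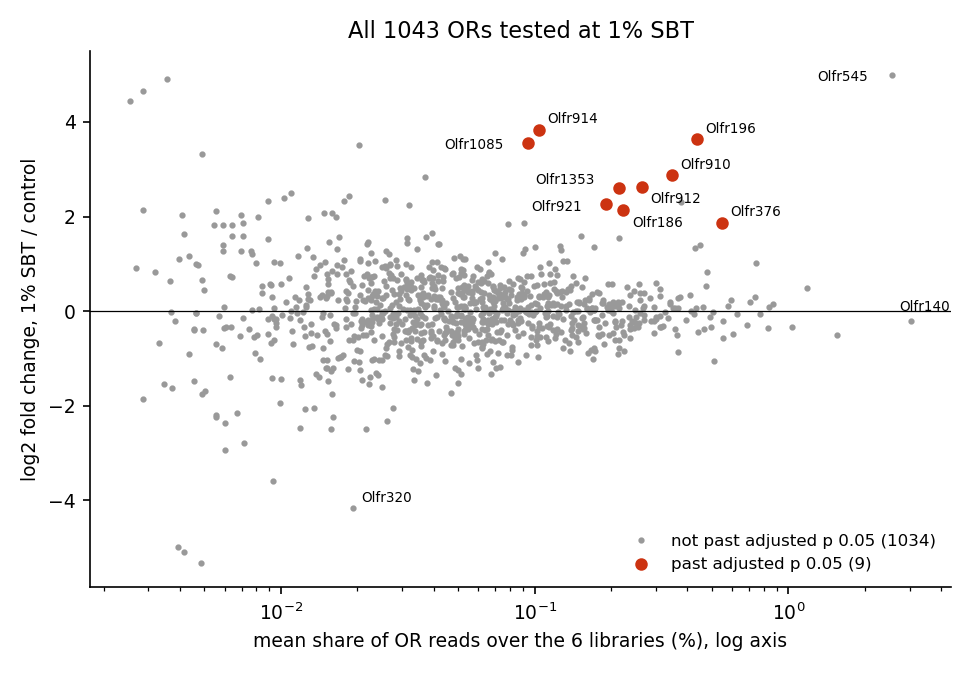
Log2 fold change of 1% SBT over control (vertical axis) against the mean share of OR reads over the 6 libraries in percent (horizontal axis, log scale) for the 1043 ORs tested, with 1 point per OR and 3 libraries per group. The 9 ORs past an adjusted p of 0.05 (red) lie between log2 fold changes of 1.87 and 3.84, and Olfr545, which is high in 1 library only, lies above them at 4.99 without passing the test.

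Shares that did not overlap between the groups were found for 39 ORs in the higher direction (3.74% of those tested) and for 82 in the lower direction (7.86%). The 14.4% taken by *Olfr545* in 1% SBT replicate 1 is part of the total against which every other share of that library is computed. With counts scaled by TMM factors in place of shares, the numbers were 53 higher (5.08%) and 60 lower (5.75%), a scale chosen after the shares had been seen. The 9 ORs are among those that did not overlap by shares.

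Of the 9 raised ORs, 6 belong to 2 subfamilies. RefSeq gives *Olfr910*, *Olfr912*, *Olfr914* and *Olfr921* names of the MOR165 subfamily (MOR165-3, MOR165-4, MOR165-7 and MOR165-8), and gives *Olfr196* and *Olfr186* names of the MOR183 subfamily. Between pairs of the 9 the identity of the coding sequences reached 75% in 7 of 36 pairs (19.4%), against 2393 of 619941 pairs (0.386%) among the 1114 ORs with a coding sequence. The median over the 36 pairs was 59.4% and that over all pairs 56.4%. Sets of closely related receptors are shown next, so that the raised ORs can be set beside each other and beside close relatives that did not pass the test. Each line gives 99 coding bases, 5′ to 3′, around the codons for the conserved Asp-Arg-Tyr motif at the end of the third membrane helix, with 45 bases on either side, and capitals mark the bases that differ from the first sequence of the set.

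The MOR165 set is from the GRCm38 coding exons at chr9:38539212-38539310 (plus strand) for Olfr910, chr9:38581594-38581692 (plus strand) for Olfr912, chr9:38606782-38606880 (plus strand) for Olfr914, chr9:38775572-38775670 (plus strand) for Olfr921 and chr9:38594538-38594636 (plus strand) for Olfr913, of which all but Olfr913 were raised. Olfr912 differs from Olfr910 at 3 of the 99 bases, Olfr914 and Olfr913 at 12 each and Olfr921 at 19.
Olfr910: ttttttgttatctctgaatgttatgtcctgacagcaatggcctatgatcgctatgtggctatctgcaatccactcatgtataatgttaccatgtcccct
Olfr912: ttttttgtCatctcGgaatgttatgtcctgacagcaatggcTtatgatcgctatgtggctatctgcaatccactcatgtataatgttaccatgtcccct
Olfr914: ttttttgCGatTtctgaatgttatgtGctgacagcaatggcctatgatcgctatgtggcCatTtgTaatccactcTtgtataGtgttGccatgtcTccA
Olfr921: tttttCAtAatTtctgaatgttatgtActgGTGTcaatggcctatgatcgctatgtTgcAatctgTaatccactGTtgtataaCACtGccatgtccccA
Olfr913: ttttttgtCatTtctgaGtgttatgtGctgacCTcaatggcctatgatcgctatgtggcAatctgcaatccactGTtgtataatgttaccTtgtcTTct

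The chromosome 16 set holds the raised Olfr196 at chr16:59167728-59167826 (minus strand), its closest relative Olfr193 at chr16:59110195-59110293 (minus strand), which did not pass the test, and the raised Olfr186 at chr16:59027492-59027590 (minus strand). Olfr193 differs from Olfr196 at 3 bases and Olfr186 at 18.
Olfr196: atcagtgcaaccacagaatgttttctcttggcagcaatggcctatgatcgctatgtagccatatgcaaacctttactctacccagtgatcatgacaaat
Olfr193: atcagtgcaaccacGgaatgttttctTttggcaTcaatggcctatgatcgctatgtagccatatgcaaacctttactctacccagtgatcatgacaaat
Olfr186: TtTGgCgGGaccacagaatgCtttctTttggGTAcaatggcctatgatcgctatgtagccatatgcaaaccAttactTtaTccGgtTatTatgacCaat

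The MOR139 pair of chromosome 10 is Olfr1353 at chr10:78969966-78970064 (plus strand), which was raised, and its neighbour Olfr1352 at chr10:78984107-78984205 (plus strand), the OR next outside the threshold. They differ at 19 bases.
Olfr1353: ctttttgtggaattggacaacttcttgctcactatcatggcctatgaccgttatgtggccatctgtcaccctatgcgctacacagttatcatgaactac
Olfr1352: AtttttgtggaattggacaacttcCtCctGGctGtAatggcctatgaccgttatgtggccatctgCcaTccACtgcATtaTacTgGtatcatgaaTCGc

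The MOR135 pair of chromosome 11 is the raised Olfr376 at chr11:73375075-73375173 (plus strand) and Olfr20 at chr11:73354070-73354168 (plus strand), which did not pass the test. They differ at 5 bases.
Olfr376: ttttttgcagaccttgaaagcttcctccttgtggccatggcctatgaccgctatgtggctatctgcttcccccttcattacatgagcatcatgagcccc
Olfr20: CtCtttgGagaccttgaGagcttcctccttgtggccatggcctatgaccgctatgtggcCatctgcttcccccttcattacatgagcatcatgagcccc

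In the MOR165 subfamily, 4 of the 7 members tested were raised (57.1%, against 0.863% of all ORs tested). The median log2 fold change of the 7, which include these 4, was 2.44 against 0.02 over all ORs tested. Subfamilies were looked at because they held a raised OR, so each holds at least 1 by selection. *Olfr910* took 0.0931%, 0.115% and 0.0549% of OR reads in the 3 control libraries and 0.618%, 0.857% and 0.345% in the 3 libraries of 1% SBT. The lowest exposed mouse was above the highest control mouse, and the mean share went from 0.0878% ± 0.0306 to 0.607% ± 0.256 (SD, n = 3 each). Its log2 fold change was 2.88 ± 0.45 (SE), a 7.36-fold rise (adjusted p = 0.0109). *Olfr912*, the next OR along the chromosome that was raised, had 0.0522%, 0.117% and 0.0659% in the control libraries and 0.485%, 0.591% and 0.279% after 1% SBT. As for *Olfr910*, replicate 3 of 1% SBT was the lowest of the exposed libraries and still above every control. The log2 fold change was 2.63 ± 0.44 (adjusted p = 0.0115). The coding sequences of *Olfr910* and *Olfr912* are 95.9% identical, and 346 of the 1947 stretches of 50 bases in the *Olfr910* transcripts also occur in another gene, mainly *Olfr912*, so the division of reads between this pair is uncertain.

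*Olfr914* had the largest fold change among the 9. It had 2, 15 and 3 reads in the control libraries and 93, 164 and 72 reads after 1% SBT, or shares of 0.00454%, 0.0262% and 0.0110% against 0.224%, 0.247% and 0.113%. The control level rests on few reads, and the 95% Wilson interval for the 2 reads of control replicate 1 runs from 0.00125% to 0.0166%. The log2 fold change was 3.84 ± 0.60, a 14.3-fold rise (adjusted p = 0.0109), and it was 3.42 to 4.83 with each library left out in turn. *Olfr921*, the fourth raised member, had 0.0636%, 0.0560% and 0.0952% in the control libraries and 0.205%, 0.289% and 0.436% after 1% SBT. Here replicate 3 was the highest of the exposed libraries, the opposite of *Olfr910*, *Olfr912* and *Olfr914*. Its log2 fold change was 2.26 ± 0.42 (adjusted p = 0.0183).

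The other members of MOR165 did not pass the test. *Olfr913* lies between *Olfr912* and *Olfr914*, 5.88 kb from the one and 8.82 kb from the other, and is the closest relative of *Olfr914* by coding identity (81.5%) and also of *Olfr921* (80.5%). Its shares were 0.0727%, 0.0350% and 0.0586% in the control libraries and 0.0145%, 0.0558% and 0.0581% after 1% SBT, which overlap, and its log2 fold change was -0.26 ± 0.60 (adjusted p = 0.994). For *Olfr920*, 80.5% identical to *Olfr910*, the log2 fold change was 0.90 ± 0.85 (adjusted p = 0.994). *Olfr907* had 1, 2 and 4 reads in the control libraries and 25, 12 and 8 reads after exposure, and its log2 fold change was 2.44 ± 1.08 (adjusted p = 0.957). *Olfr908* had 1 read over the 6 libraries and was not tested. Whether the response of *Olfr913* differs from that of its raised neighbours was not tested as such.

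**Figure D2:**
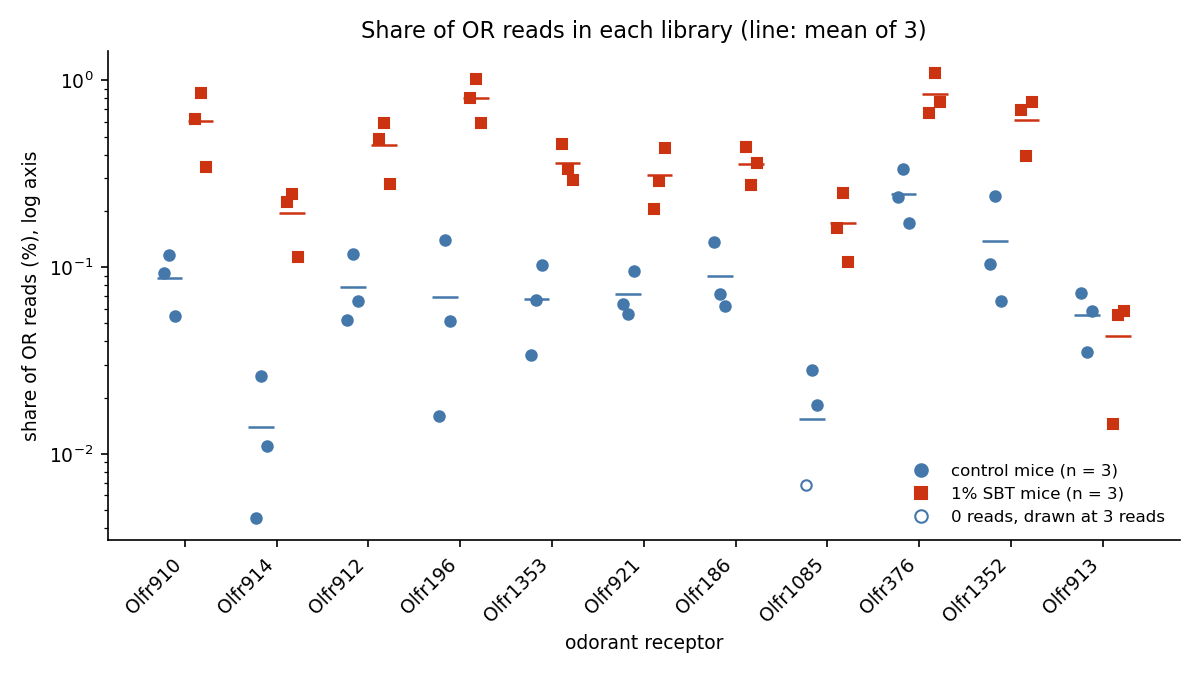
Share of OR reads in percent (vertical axis, log scale) in each of the 3 control libraries (blue circles) and the 3 libraries of 1% SBT (red squares) for the 9 raised ORs, Olfr1352 and Olfr913, with a line at each group mean and 1 open circle for a library with 0 reads. For the 9 ORs and Olfr1352 the red points all lie above the blue points, and for Olfr913 they overlap.

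In the MOR183 subfamily of chromosome 16, 2 of 7 members were raised (28.6%, against 0.863% of all ORs tested) and the median log2 fold change of the 7 was 0.31. *Olfr196* had 7, 80 and 14 reads in the control libraries and 332, 679 and 376 reads after 1% SBT. Its shares of 0.0159%, 0.140% and 0.0513% in the control libraries were uneven, control replicate 2 being the highest, and all were below the 0.801%, 1.02% and 0.590% of the exposed libraries. The log2 fold change was 3.63 ± 0.61 (12.4-fold, adjusted p = 0.0115), and leaving out control replicate 2 raised it to 4.76. *Olfr186* had 0.136%, 0.0717% and 0.0623% against 0.439%, 0.274% and 0.359%, without overlap, and a log2 fold change of 2.13 ± 0.44 (adjusted p = 0.0368). The pair is 78.1% identical in coding sequence, less than several ORs that did not pass are to *Olfr196*. *Olfr193*, at 92.0% identity, is not among the 7 ORs named MOR183. It had shares of 0.0727%, 0.0402% and 0.0183% in the control libraries and 0.0990%, 0.0934% and 0.0957% after 1% SBT, which did not overlap. Its log2 fold change was 1.23 ± 0.53 (adjusted p = 0.913). *Olfr191*, at 91.3%, and *Olfr197*, at 85.6%, had log2 fold changes of 0.59 ± 0.49 and 0.20 ± 1.17, neither past the test.

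*Olfr1353* of the MOR139 subfamily took 0.0341%, 0.0665% and 0.103% of OR reads in the control libraries and 0.454%, 0.336% and 0.294% after 1% SBT. Exposed mice were all above control mice. Between libraries of the same replicate number the log2 ratio was largest for replicate 1 (3.74) and smallest for replicate 3 (1.52). Its log2 fold change was 2.59 ± 0.46 (adjusted p = 0.0145). *Olfr1352*, 9.71 kb away and 77.5% identical, had 0.104%, 0.241% and 0.0659% in the control libraries and 0.693%, 0.392% and 0.766% after 1% SBT. These shares did not overlap either, and the log2 fold change of 2.31 ± 0.51 was just outside the threshold (adjusted p = 0.0553). With the replicate number as a block *Olfr1352* passed (adjusted p = 0.0184). The other 5 members of MOR139 had log2 fold changes between -0.91 (*Olfr57*) and 0.74 (*Olfr1355*), and the 3 shares of *Olfr57* after 1% SBT lay below its 3 control shares.

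*Olfr1085* and *Olfr376* were each the only raised member of their subfamily. *Olfr1085*, the one OR named MOR191, had 0, 16 and 5 reads in the control libraries and 67, 165 and 68 after 1% SBT. The 0 reads of control replicate 1 allow a share of up to 0.00681% (3 reads of 44027), and the shares after exposure were 0.162%, 0.249% and 0.107%. Its log2 fold change was 3.55 ± 0.73 (adjusted p = 0.0368). *Olfr376* took 0.236%, 0.334% and 0.172% in the control libraries and 0.671%, 1.10% and 0.766% after 1% SBT, again without overlap. Its log2 fold change of 1.87 ± 0.39 was the smallest of the 9 (adjusted p = 0.0368). *Olfr20*, 92.7% identical to it, had 0.0295%, 0.0665% and 0.0256% against 0.154%, 0.226% and 0.0408%, and its exposed replicate 3 lay within the control range. The log2 fold change of *Olfr20* was 1.86 ± 0.61 (adjusted p = 0.488). *Olfr1*, 85.6% identical to *Olfr376*, had a log2 fold change of -0.13 ± 0.36. Among the 17 MOR135 members tested, 1 was raised (5.88%, against 0.863% of all ORs tested) and the median log2 fold change was -0.03. *Olfr20* shares 2128 of its 2344 stretches of 50 bases (90.8%) with other genes, mainly Gm49340, *Olfr376*, *Olfr380* and *Olfr384*. *Olfr376* shares 255 of its 3341 stretches (7.63%) with any other gene, so most shared stretches of *Olfr20* are not shared with *Olfr376*. This bears on how the reads of both could be assigned.

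All 9 kept a positive log2 fold change in each of the 20 alternative settings, and 9 of 9 passed in 11 of them. The calls depended on single libraries. Without 1% SBT replicate 1, the library with the *Olfr545* peak, 0 of the 9 passed, although their log2 fold changes were 1.86 to 3.64 and each had an unadjusted p under 0.05, with adjusted p from 0.0587 to 0.239. Without control replicate 2, 4 of the 9 passed, and without 1% SBT replicate 3, 5 did. Within the 4 libraries that share a title prefix the log2 fold changes of the 9 were 1.74 to 4.01, and the lowest adjusted p was 0.0559. With *Olfr545* removed from the table and all 6 libraries kept, all 9 passed and *Olfr1352* joined them. *Olfr910*, *Olfr912*, *Olfr914* and *Olfr196* passed with any 1 library left out other than 1% SBT replicate 1, whereas *Olfr376* passed in 0 of the 6 such fits.

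The 10 ORs next in order of p after the 9 included 8 others with higher counts besides *Olfr1352*, and *Olfr320*, which was lower; none of these 10 passed. *Olfr175* of chromosome 16 had 0.0931%, 0.0805% and 0.0733% in the control libraries and 0.297%, 0.166% and 0.201% after 1% SBT (log2 fold change 1.58 ± 0.41, adjusted p = 0.192). *Olfr535* of chromosome 7 had 0.0772%, 0.112% and 0.165% against 0.220%, 0.250% and 0.465%, and its log2 fold change of 1.55 ± 0.43 passed with the replicate number as a block (adjusted p = 0.0394 against 0.259 without it). In both the groups did not overlap. *Olfr267* (log2 fold change 2.84 ± 0.80), *Olfr705* (1.36 ± 0.41) and *Olfr1259* (1.37 ± 0.45) also had shares without overlap, as did *Olfr152* (3.52 ± 1.10), whose control libraries held 3, 0 and 1 reads. *Olfr545* and *Olfr20* completed the 10, and their groups overlapped. Over all ORs tested 3.74% had shares above all controls, and the 10 were picked by p in the same libraries.

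No OR was called lower. The 5 lower ORs with the smallest p were *Olfr320*, *Olfr1366*, *Olfr23*, *Olfr809* and *Olfr550*, and their adjusted p ran from 0.418 to 0.822. *Olfr320* had 34, 11 and 4 reads in the control libraries and 0, 0 and 3 after 1% SBT. *Olfr1366* took 0.104%, 0.0752% and 0.0403% against 0.0241%, 0.0181% and 0.0188%, and *Olfr809* took 0.0909%, 0.0840% and 0.0513% against 0.0266%, 0.0256% and 0.0204%. In all 5 the exposed shares lay below the control shares, as they did for 82 of the 1043 ORs tested (7.86%). The 5 were picked by p in the same 6 libraries, which favours such a gap. The log2 fold changes of the 5 ran from -4.17 (*Olfr320*) to -1.01 (*Olfr550*).

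The log2 fold changes of neighbours and relatives of the raised ORs lay on both sides of 0. Of 52 ORs within 100 kb of another raised OR, 47 were tested, and their log2 fold changes ran from -2.94 to 3.84 with a median of 0.40. The 47 include 3 of the 9, namely *Olfr910*, *Olfr912* and *Olfr914*. By coding identity to the closest other raised OR, the 22 ORs at 80% or more, 4 of them raised, had a median log2 fold change of 0.14. The 46 at 70% to 80%, 2 of them raised, had a median of 0.35. The 329 at 60% to 70%, 3 of them raised, had a median of 0.09, and the 644 below 60%, with 0 raised, had a median of -0.04. Among the 83 ORs of the chromosome 9 cluster from *Olfr870* to *Olfr985*, 75 were tested, and the 4 that passed (5.33%) were the MOR165 members above. The median of the 75 was 0.18. Shares above all controls were found for 6 of the 75, namely these 4, *Olfr887* and *Olfr904*, and shares below all controls for 3. Over all ORs tested, 0.863% passed, 3.74% had shares above all controls and 7.86% below.

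**Figure D3:**
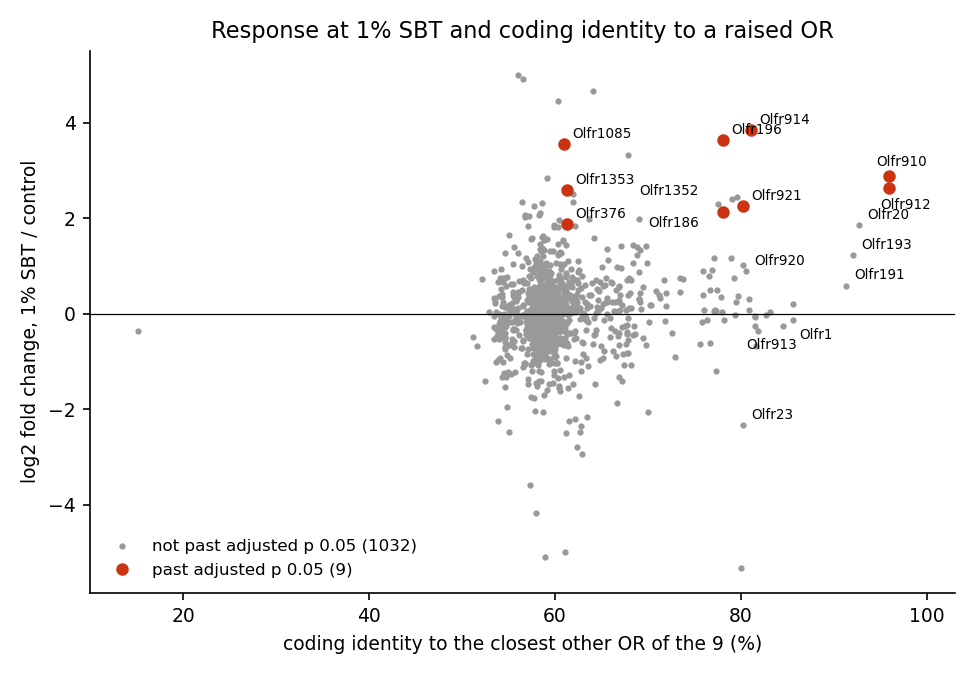
Log2 fold change of 1% SBT over control (vertical axis) against the coding identity in percent to the closest other OR among the 9 raised ORs (horizontal axis), 1 point per OR tested that has a coding sequence. Close relatives that were not raised, such as Olfr913, Olfr191 and Olfr1 (grey), lie at identities from 81.5% to 91.3% with log2 fold changes from -0.26 to 0.59, and the closer Olfr193 (92.0%) and Olfr20 (92.7%), also not past the test, lie at 1.23 and 1.86, while Olfr1085, Olfr1353 and Olfr376 were raised (red) without such a relative among the 9.

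Other groups of ORs, chosen with earlier results of these data known, contained none of the 9. The chromosome 7 ORs from *Olfr543* to *Olfr693*, nearly all of them class I receptors (the class related to fish ORs), numbered 119. Of the 109 tested, 0 passed, with a median log2 fold change of -0.17, and shares below all controls were found for 11 and above for 1, against 7.86% below and 3.74% above over all ORs tested. The list sum of shares was 9.35% to 10.9% in the control libraries and 7.76% to 23.6% after 1% SBT, the highest value belonging to the library with the *Olfr545* peak. Among 15 ORs with known ligands, 14 were tested and 0 passed, with log2 fold changes from -0.92 to 0.66. Over all ORs tested only 0.863% passed, so 0 in lists of these sizes says little about their receptors. The 14 include *Olfr1509* (log2 fold change -0.49 ± 0.38), a receptor of the thiol MTMT, another male urinary volatile, and *Olfr2* (-0.76 ± 0.67), the octanal receptor I7. *Olfr16* (-0.50 ± 0.35), the lyral receptor MOR23, and *Olfr1440* (-0.61 ± 0.41), a muscone receptor, had shares after 1% SBT below all control shares. They were 2 of the 14, beside 7.86% of all ORs tested. *Olfr1295* had 0.0840%, 0.0857% and 0.132% in the control libraries and 0.159%, 0.145% and 0.111% after 1% SBT, with overlap, and a log2 fold change of 0.61 ± 0.40 (adjusted p = 0.994).

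The 0.01% SBT experiment gave a second look at the same ORs in other mice with other controls. Of the 1072 ORs tested there, 5 were higher (0.466%) and 0 lower. Of the 9 ORs raised at 1%, 4 passed at 0.01% (44.4% of the 9 and 80% of the 5): *Olfr910*, *Olfr912*, *Olfr921* and *Olfr196*. *Olfr910* took 0.0641%, 0.0756% and 0.0692% in those controls and 0.582%, 0.314% and 0.514% after 0.01% SBT, a log2 fold change of 2.79 ± 0.31 beside 2.88 ± 0.45 at 1%. *Olfr912* took 0.0532%, 0.0318% and 0.0820% in the controls and 0.410%, 0.257% and 0.603% after exposure, a log2 fold change of 2.97 ± 0.40 beside 2.63 ± 0.44. For both, the groups did not overlap at either dose, and the 2 fold changes differed by less than the SE of their difference. *Olfr921* had 1.84 ± 0.29 at 0.01% (adjusted p = 0.00259) and *Olfr196* had 1.73 ± 0.32 (adjusted p = 0.0111). Shares above all controls at 0.01% were found for 7 of the 9, against 3.08% of the ORs tested, the other 3 being *Olfr1353*, *Olfr1085* and *Olfr376*. None of these 3 passed the test at 0.01%. *Olfr714*, the fifth OR called at 0.01% (log2 fold change 1.71 ± 0.32), had 0.02 ± 0.84 at 1%, a value whose sign depends on the scaling.

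*Olfr914* and *Olfr186* overlapped between the groups at 0.01%. *Olfr914* had 0.0182%, 0.0249% and 0.0474% in the controls of that experiment and 0.0381%, 0.0150% and 0.0377% after 0.01% SBT, a log2 fold change of 0.08 ± 0.47. *Olfr186* had 0.0583%, 0.0577% and 0.0551% in the controls and 0.0631%, 0.0522% and 0.0806% after exposure, a log2 fold change of 0.22 ± 0.30. The difference of the 2 fold changes, 1% minus 0.01%, was tested over 1082 ORs and 0 passed in either direction, with 48 (4.44%) at an unadjusted p under 0.05. DESeq2 called 1, which was *Olfr914*. In the quasi-likelihood test *Olfr914* had the lowest adjusted p, with a difference of 3.79 ± 0.78 (adjusted p = 0.0914), and it passed without control replicate 2 (adjusted p = 0.0354) but in no other of the 12 fits that left out 1 library. For *Olfr186* the difference was 1.91 ± 0.52 (adjusted p = 0.788), for *Olfr376* 1.48 ± 0.44 and for *Olfr196* 1.92 ± 0.67. For *Olfr912* it was -0.32 ± 0.60. The 9 were selected by their values at 1%, which by itself raises their mean difference from the lower dose.

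**Figure D4:**
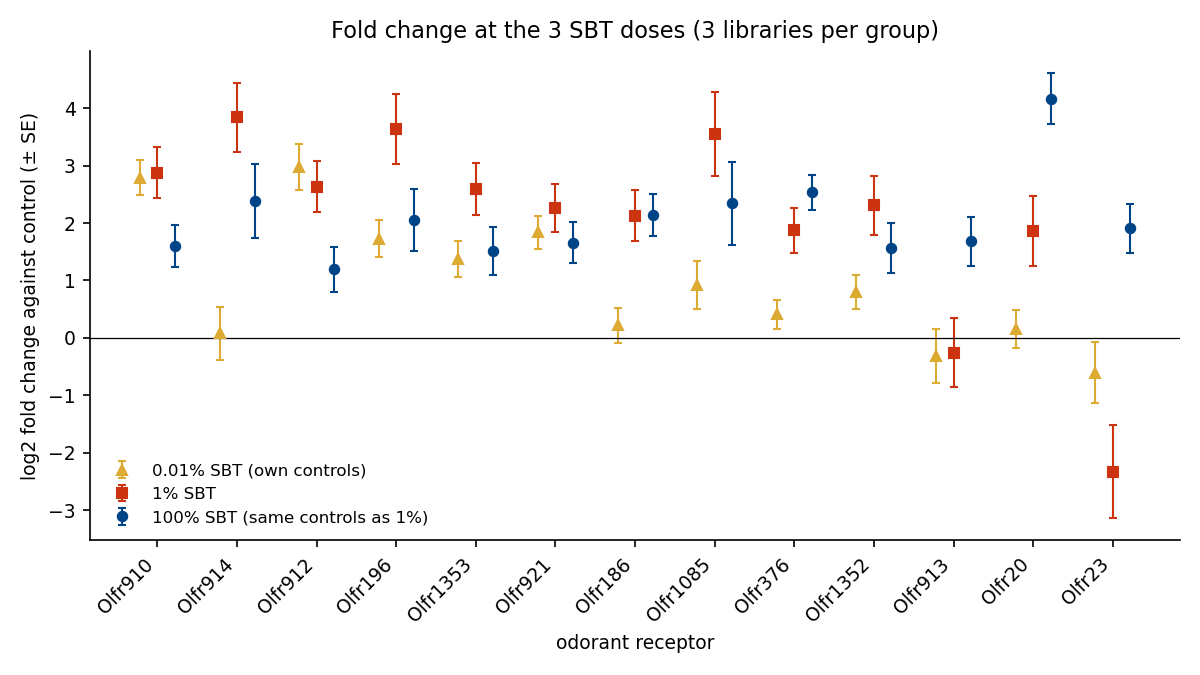
Log2 fold change against control with its standard error (vertical axis) at 0.01% (triangles, own controls), 1% (squares) and 100% SBT (circles, the same controls as 1%) for the 9 ORs raised at 1% and 4 relatives or neighbours, 3 libraries per group. Olfr910, Olfr912, Olfr921 and Olfr196 are well above 0 at 0.01%, Olfr914 and Olfr186 are near 0 there, and Olfr913 and Olfr23 are above 0 at 100% only.

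Undiluted SBT used the same control libraries, so its values are set beside those of 1% without counting them as independent. Against these controls 7 of the 9 passed at 100% SBT, where 112 of 1050 ORs were higher (10.7%) and 8 lower (0.762%), and all 9 had shares above all controls (13.3% of the ORs tested). Their log2 fold changes at 100% ran from 1.19 (*Olfr912*) to 2.54 (*Olfr376*) with a median of 2.05, and *Olfr912* and *Olfr1085* did not pass (adjusted p = 0.0716 and 0.0537). *Olfr910* had 0.173%, 0.250% and 0.200% of OR reads after 100% SBT, all below the lowest share after 1% SBT. The reads of all 112 higher ORs are part of the totals against which these shares are computed. From TMM-scaled counts, the log2 difference of 100% minus 1% for *Olfr910* was -1.30 ± 0.38 (adjusted p = 0.0446). *Olfr912* (-1.47 ± 0.37, adjusted p = 0.0192), *Olfr914* (-1.48 ± 0.44, adjusted p = 0.0460) and *Olfr196* (-1.60 ± 0.36, adjusted p = 0.00888) were also lower at 100% than at 1%. These 4 are 4 of the 10 ORs lower at 100%, out of 1046 tested (0.956%), and 85 were higher (8.13%). The lower calls depended on single libraries. With each of the 6 libraries left out in turn, lower ORs numbered 2, 4 and 17 without 1% SBT replicates 1, 2 and 3, and 1, 4 and 2 without 100% SBT replicates 1, 2 and 3. Higher ORs numbered 51 without 100% SBT replicate 1. *Olfr910* and *Olfr912* then passed only without 1% SBT replicate 3, *Olfr914* only without that library or 100% SBT replicate 2, and *Olfr196* in 4 of the 6, failing without 100% SBT replicate 1 or 3. All 4 kept a negative difference in each of the 6. The 9 were picked for high values in the 1% libraries that enter this difference, which by itself lowers it. *Olfr186* had a difference of 0.00 ± 0.35 and *Olfr376* of 0.64 ± 0.35 (adjusted p = 0.392).

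Some relatives that did not pass at 1% were among the ORs higher at 100% than at 1%, as were 8.13% of all ORs tested. Only relatives that were higher are given here, and how many were not is not given. Relatives as a set were not tested. *Olfr913* took 0.125%, 0.182% and 0.0956% after 100% SBT, all above its 3 shares after 1% SBT, a difference of 1.90 ± 0.47 (adjusted p = 0.0175). It passed in 4 of the 6 fits that left out 1 library, failing without 100% SBT replicate 1 (adjusted p = 0.0580) or 2 (adjusted p = 0.107), while *Olfr20*, *Olfr23* and *Olfr57* passed in all 6. *Olfr20* took 0.689%, 0.687% and 0.346%, a difference of 2.29 ± 0.52 (adjusted p = 0.00971). *Olfr23*, another MOR135 member, had 1, 8 and 6 reads after 1% SBT and 128, 133 and 63 after 100% SBT, a difference of 4.21 ± 0.53 (adjusted p = 0.000262). *Olfr57* of MOR139, at a log2 fold change of -0.91 ± 0.50 at 1%, was higher at 100% than at 1% by 3.76 ± 0.40 (adjusted p = 5.74e-05). The lowest p among all ORs for this difference was that of *Olfr506* (4.39 ± 0.42), whose log2 fold change at 1% was 0.35 ± 0.65.

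In 7 other odor exposures, whose controls were other mice than those of 1% SBT, 2 of the 9 passed. The 2-heptanone experiment was not analysed here. *Olfr1353* was higher after DHB, a male urinary volatile, by 2.56 ± 0.29 on the log2 scale (adjusted p = 8.12e-06), where 6 of 1064 ORs were called (0.564%). *Olfr376* was higher after 2,5-DMP, a pyrazine of female urine, by 1.98 ± 0.32 on the log2 scale (adjusted p = 0.000995), where 9 of 1070 were called (0.841%). After (E)-beta-farnesene, at which 19 of 1071 ORs were called (1.77%), and after 100 uM MTMT, at which 3 of 1068 were called (0.281%), 0 of the 9 passed. After 10 mM MTMT, beta-caryophyllene and CPD no OR at all was called (0 of 1054, 0 of 1048 and 0 of 1050), and so 0 of the 9. Shares above all controls were found for 1 of the 9 after DHB, 2 after 2,5-DMP and 2 after (E)-beta-farnesene, where the highest log2 fold change of the 9 was 1.39. Shares below all controls were found for 1 after 10 mM MTMT and 1 after CPD. How many of all ORs tested had such shares in these exposures is not given here. The median log2 fold change of the 9 was between -0.16 and 0.25 in these 7 exposures.

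*Olfr545* was the only OR of the 6 libraries that took, with at least 50 reads, 5 times or more the share it had in each of the other 5. It had 174, 59 and 16 reads in the control libraries and 5964, 223 and 24 after 1% SBT. Its log2 fold change of 4.99 ± 1.57 rested on 1 library (adjusted p = 0.442) and was -0.038 without it. *Olfr544*, adjacent to it and 91.2% identical in coding sequence, took 0.341%, 0.254% and 0.242% in the control libraries and 1.54%, 0.173% and 0.144% after 1% SBT, so it was also highest in 1% SBT replicate 1. The *Olfr544* transcripts share 10.9% of their stretches of 50 bases with other genes, all of them with *Olfr545*. *Olfr543*, of the same stretch of chromosome 7, took 0.00909%, 0.0542% and 0.0330% and 0.0483%, 0.0377% and 0.0251% and showed no peak in that library.

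**Figure D5:**
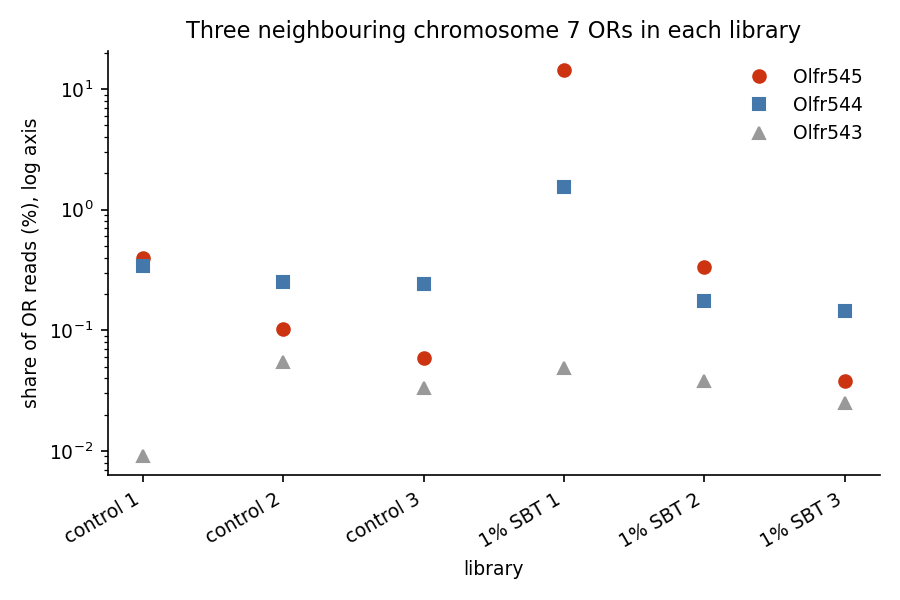
Share of OR reads in percent (vertical axis, log scale) of Olfr545 (circles), Olfr544 (squares) and Olfr543 (triangles) in each of the 6 libraries (horizontal axis). Olfr545 stands at 14.4% and Olfr544 at 1.54% in 1% SBT replicate 1, above their shares in the other 5 libraries, and Olfr543 does not.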

How the data were processed

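pS6-IP-Seq libraries of mouse olfactory mucosa were compared, 3 per group. Reads had been mapped by the authors to GRCm38, less 1 deleted gene model, using STAR, and counts per gene estimated with RSEM. The deposited expected counts are whole numbers, not normalized, for 1117 intact OR genes. The deposited comparison columns (the authors' fold changes, test statistics and p-values) were not used, and neither were 6 columns that match no sample. Which sequencer served these libraries is not given in the sources used here.

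ORs reaching 10 reads in the sum of the 6 libraries entered edgeR 4.0.16 (R 4.3.3), fitted on counts as deposited (TMM scaling by OR counts, estimateDisp, glmQLFit, glmQLFTest, Benjamini-Hochberg adjustment, threshold 0.05). The SE is the log2 fold change divided by the square root of F. DESeq2 1.42.0, other scalings and filters, a replicate block and each library left out were alternatives. The difference of the effect at 1% and 0.01% SBT was an interaction with the experiment as a term. Same-numbered mice of the groups, which the study drew from shared litters, deviated together (correlations 0.139, 0.106 and 0.226, against -0.151 to -0.0061 for other numbers), so the numbers pair the mice. Printed values are from the fit without the pairing. With the number as a block, 11 ORs were higher in place of 9, adding Olfr1352 and Olfr535. Replicates differed beyond counting noise (chi-squared per degree of freedom 5.28 to 17.4), and p-values measure the spread between these mice.

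Wilson intervals (95%, scipy 1.17.1) and limits at 3 reads cover counting error only, as no molecular identifiers were used. Positions and coding intervals are from the GENCODE annotation of GRCm38 (1114 ORs with a coding sequence), with the bases read from RefSeq's GRCm38 sequence. Subfamily names are from RefSeq (1089 ORs with a subfamily name), and coding identity is from global alignment (edlib 1.3.9.post1). Stretches of 50 bases were compared over GENCODE transcripts on both strands.

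ORs named are those past the threshold, the next 10 by p, the 5 lower ORs of smallest p, Olfr910, Olfr912 and Olfr1295, ORs within 100 kb of a called OR, the most abundant OR of each library, known-ligand ORs, those called at 0.01% SBT, and the 10 leading ORs of 100% against 1%. Relatives by subfamily or identity were added after values were seen. The groups and lists were chosen with earlier results of these data known.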

Additional observations from a re-analysis of the deposited data

How the results depend on the processing

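The number of ORs higher after 1% SBT was 9, and it was 0 within the 4 libraries of 1 title prefix, 14 by a likelihood ratio test and 23 with 51 libraries in the fit. Leaving out 1 library at a time gave 0 to 8 higher ORs and 0 to 1 lower (*Olfr1416*, without 1% SBT replicate 3). Lower ORs numbered 0, against 1 by the likelihood ratio test and 5 with 51 libraries. With the replicate number as a block the count of higher ORs was 11, and the block changed no call among the other ORs named. ORs whose shares did not overlap numbered 59 to 92 higher and 118 to 175 lower with 1 library left out, a rise that follows from comparing fewer samples. For the difference of the effect at 1% and 0.01% SBT, 1 OR was higher by DESeq2 and 1 by the likelihood ratio test, and 0 to 1 with a library left out. For 100% against 1% SBT, leaving out 1 library gave 51 to 87 higher and 1 to 17 lower, and lower ORs numbered 17 without TMM factors, 16 by DESeq2 and 16 with the replicate block. Without TMM factors the median log2 fold change of all ORs at 1% SBT moved by -0.12. *Olfr545* changed sign without 1% SBT replicate 1 and ran from -0.038 to 6.20 with a library left out. *Olfr714* was -0.34 with the replicate block, -0.22 with the title prefix as a block, -0.40 within 1 prefix, -0.013 by DESeq2, -0.15 without TMM factors and -0.00094 with RLE factors, and -1.11 to 0.72 with a library left out. The causes were not tested. ORs of under 10 reads over the 6 libraries (74 of 1117) are below what this depth can test.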

Other observations

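Over the other 50 libraries of the series *Olfr545* had a median share of 0.0228% and a maximum of 0.395%, against 14.4% in 1% SBT replicate 1. The 2 highest of these 50 were control replicate 1 (0.395%, 174 reads) and 1% SBT replicate 2 (0.336%, 223 reads), both of which carry the same title prefix as 1% SBT replicate 1. The other 3 libraries with that prefix had 0.103% (control replicate 2), 0.0727% (100% SBT replicate 2) and 0.0441% (100% SBT replicate 1). In the 42 libraries with neither prefix the median was 0.0215% and the maximum 0.0643%. *Olfr544* was 1.54% in 1% SBT replicate 1, and its highest share over the 50 was also in control replicate 1 (0.341%). In the other libraries with that prefix it was 0.254% (control replicate 2), 0.173% (1% SBT replicate 2), 0.143% (100% SBT replicate 1) and 0.0928% (100% SBT replicate 2), against a median of 0.198% over the 50. What lies behind these shares was not tested.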
